A study of Mus musculus with 6 samples.

Results

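The EGF receptor family and its ligands were followed in cultured keratinocytes of p63 alphaKO and wild type mice. The set was named gene by gene: 3 receptors (Egfr, Erbb2 and Erbb3) and 7 ligands (Areg, Ereg, Hbegf, Tgfa, Btc, Epgn and Nrg1), 10 of the 30349 genes listed. All 10 were listed and passed the filter on low values, which asked for 1 CPM or more on average, where CPM is counts per 1000000 reads of a library. The p63 alphaKO group held 3 libraries (replicates 9, 10 and 11) and the wild type group 3 (replicates 13, 14 and 15). All came from epidermis of mice at postnatal day 2, and the labels give neither the part of Trp63, the gene of the transcription factor p63, that the alphaKO allele lacks nor the animals or litters behind each library. Every culture, wild type included, had EGF added at 2.5 ng/mL, with 0.05 mM calcium and 4% chelated serum for 5 to 6 days, so the levels below are those of cells already exposed to a ligand of Egfr.

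ERBB receptors are tyrosine kinases at the cell surface that pair up when a ligand binds and signal through the RAS to ERK and PI3K to AKT routes. Egfr binds EGF, TGF-alpha, amphiregulin, epigen, betacellulin, epiregulin and HB-EGF; Erbb3 binds neuregulins and has little kinase activity of its own; Erbb2 has no known ligand and serves as a partner for the others. The ligands are made as membrane proteins and cut loose by proteases such as ADAM17, and keratinocytes use them to drive their own growth and migration in culture and in wounds.

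Libraries held 1699716 to 3215333 reads, and 3 reads corresponded to between 0.933 and 1.76 CPM. The assay counted reads near 3' ends, so a level in CPM is roughly a count of transcripts and was not divided by gene length. Of 11716 genes tested, limma called 5 at an adjusted p of 0.05, 4 higher and 1 lower in p63 alphaKO. Along the first principal component (33.2% of the variance), p63 alphaKO replicate 11 (61.2) and wild type replicate 15 (13.6) lay apart from the other 4 libraries, all below 0. Along the second (22.9%) the genotypes did not overlap. The wild type libraries lay between -39.0 and -2.97 and the p63 alphaKO libraries between 9.24 and 30.0. Keratinocyte markers were abundant in every library: 10 of 10 were read in both groups, with sums between 22922 and 31775 CPM in p63 alphaKO and between 27207 and 30231 CPM in wild type. Trp63 was at 49.78, 59.32 and 57.01 CPM in p63 alphaKO and at 38.02, 53.16 and 48.92 CPM in wild type (log2 fold change 0.25, SE 0.26, limma adjusted p = 0.926), a level per gene that does not check the allele.

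Of the ligand genes, 4 lie side by side on mouse chromosome 5 and were read at very different levels, so the start sites of those held in RefSeq are shown. Elsewhere lie Egfr (chromosome 11, 16752203 to 16918158, plus strand), Erbb2 (chromosome 11, 98412470 to 98437716, plus), Erbb3 (chromosome 10, 128567523 to 128589652, minus), Tgfa (chromosome 6, 86195223 to 86275719, plus) and Nrg1 (chromosome 8, 31814551 to 32884029, minus). In the same GRCm38 coordinates Epgn (91027464 to 91035215), Ereg (91074622 to 91093646) and Areg (91139599 to 91148432) are on the plus strand, and Btc (91357261 to 91402994) on the minus strand, within 375.5 kb. No other protein-coding gene is annotated between them. The windows run from 250 bases before the RefSeq start to 50 after it (GRCm38.p6) at chr5:91027267-91027566 for Epgn, chr5:91139349-91139648 for Areg and chr5:91402945-91403244 (minus strand) for Btc. Capitals mark the motifs found, TATAAA (bound by TBP) and TGACGTCA (CRE, the cyclic AMP response element).
Epgn: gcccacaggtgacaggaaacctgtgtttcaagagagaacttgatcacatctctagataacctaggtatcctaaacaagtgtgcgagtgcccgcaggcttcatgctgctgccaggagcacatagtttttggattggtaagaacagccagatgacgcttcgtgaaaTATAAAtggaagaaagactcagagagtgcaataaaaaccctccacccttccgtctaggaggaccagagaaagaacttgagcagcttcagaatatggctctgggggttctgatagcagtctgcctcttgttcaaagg
Areg: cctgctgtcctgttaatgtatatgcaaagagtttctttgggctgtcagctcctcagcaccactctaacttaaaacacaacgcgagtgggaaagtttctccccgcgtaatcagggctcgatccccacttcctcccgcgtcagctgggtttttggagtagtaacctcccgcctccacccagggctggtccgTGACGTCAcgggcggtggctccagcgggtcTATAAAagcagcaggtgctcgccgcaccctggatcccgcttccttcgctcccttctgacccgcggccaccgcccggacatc
Btc: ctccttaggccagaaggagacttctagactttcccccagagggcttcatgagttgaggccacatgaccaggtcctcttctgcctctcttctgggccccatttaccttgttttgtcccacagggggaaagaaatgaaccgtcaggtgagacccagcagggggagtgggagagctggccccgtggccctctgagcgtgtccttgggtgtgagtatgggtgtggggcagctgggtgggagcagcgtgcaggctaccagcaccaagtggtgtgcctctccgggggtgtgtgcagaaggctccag
Epgn has a TATAAA at position -86 and Areg at position -31, counted from the RefSeq start, and 13.6% of the 32851 promoter windows hold it on either strand. The GENCODE start of Epgn, 91027464, lies upstream of its RefSeq start, so its TATAAA is closer to the GENCODE start. For Areg both annotations start at 91139599. Areg also has TGACGTCA at position -61, a motif searched for after the windows had been read and held by 1.79% of windows. The AP-1 motif TGANTCA, in 7.81% of windows, was searched for on both strands as well and is not in these 3 windows. The motifs do not overlap each other in these windows. RefSeq windows were matched for 6 members, Epgn, Areg, Btc, Tgfa, Egfr and Erbb2.

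The cluster held both a ligand gene read at a level close to the highest of the family and the least read. Epgn averaged 78.2 CPM over the 6 libraries, Ereg 7.45 CPM, Btc 5.79 CPM and Areg 2.71 CPM. Epgn lay above Ereg, Areg and Btc in all 6 libraries. The gap between Epgn and Ereg is 39.4 kb, between Ereg and Areg 46.0 kb and between Areg and Btc 208.8 kb.

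**Figure D1:**
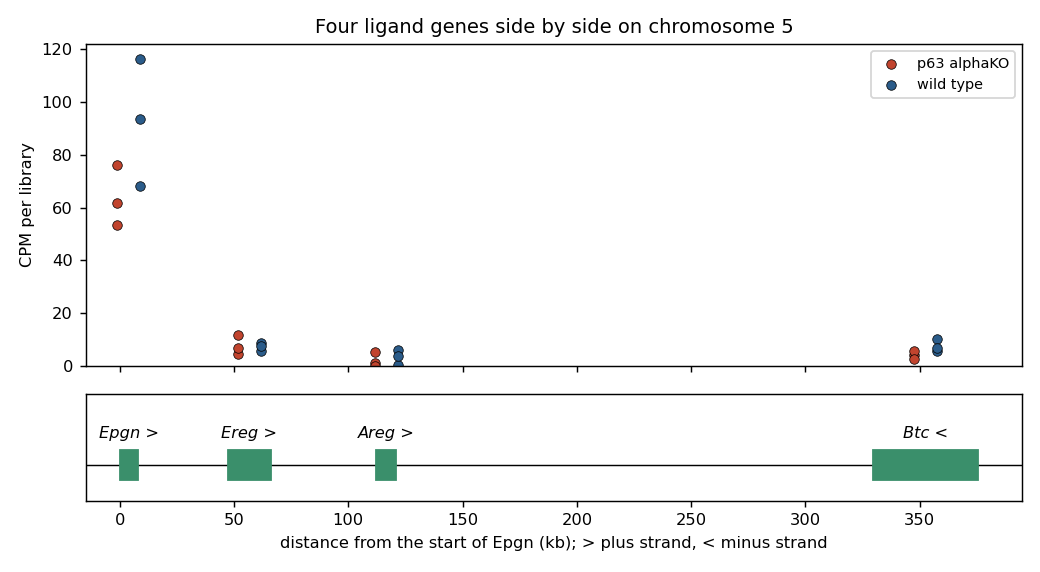
CPM of the ligand genes Epgn, Ereg, Areg and Btc in each library (upper panel; p63 alphaKO points are set 5 kb left and wild type points 5 kb right of each gene's middle) over their place on chromosome 5 in kb from the start of Epgn (lower panel, gene bodies to scale). Epgn averaged 78.2 CPM over the 6 libraries and its neighbours between 2.71 and 7.45 CPM.

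The receptors showed no difference between genotypes beyond the spread of the libraries. Egfr was at 64.85, 83.98 and 55.84 CPM in p63 alphaKO replicates 9, 10 and 11 and at 84.21, 84.86 and 44.15 CPM in wild type replicates 13, 14 and 15. The groups overlapped, and both the lowest and the highest values were in wild type libraries. The log2 fold change of Egfr was -0.02 (SE 0.29, n = 3 per group, limma adjusted p = 0.997), with a 95% interval of the fold of p63 alphaKO over wild type between 0.649 and 1.502. Erbb2, the partner receptor, was at 37.90, 34.32 and 28.80 CPM in p63 alphaKO and at 37.39, 40.41 and 23.19 CPM in wild type. Every p63 alphaKO value of Erbb2 lay inside the wild type range, at a log2 fold change of 0.03 (SE 0.29) and a fold between 0.665 and 1.57. Erbb3, the neuregulin receptor, was at 46.58, 33.32 and 20.57 CPM in p63 alphaKO and at 54.36, 44.14 and 19.69 CPM in wild type. The p63 alphaKO values again all lay inside the wild type range, with a log2 fold change of -0.18 (SE 0.37) and a fold between 0.511 and 1.51.

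Egfr made up 50.6% ± 6.34 of the summed receptor CPM in p63 alphaKO and 49.6% ± 1.51 in wild type (SD, n = 3 each), and it exceeded Erbb2 and Erbb3 in all 6 libraries. Erbb2 and Erbb3 could not be ranked, since Erbb3 was the higher of the pair in 3 libraries and Erbb2 in the other 3. Erbb4, the remaining receptor of the family, had 0 reads in all libraries, which allows up to 0.436 CPM over the p63 alphaKO group and 0.314 CPM over the wild type group, counting error only.

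**Figure D2:**
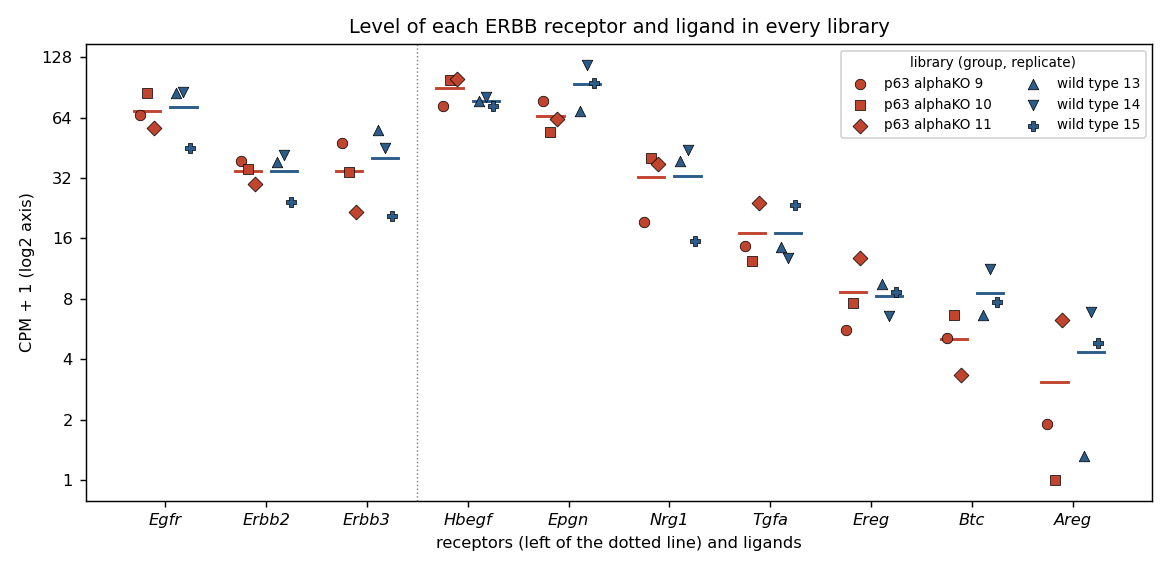
CPM + 1 on a log2 axis for each receptor and ligand in every library (p63 alphaKO in red, wild type in blue, marker shape for the replicate, bar for the group mean). The libraries of both groups overlap for all 10 genes, and levels range from 0 CPM for Areg in p63 alphaKO replicate 10 to 116.26 CPM for Epgn in wild type replicate 14.

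Hbegf and Epgn were the most read ligands. Hbegf, the ligand gene of HB-EGF, also known as a receptor of diphtheria toxin in humans, was at 71.69, 96.97 and 98.16 CPM in p63 alphaKO and at 76.04, 80.20 and 71.79 CPM in wild type. Replicates 10 and 11 of p63 alphaKO lay above all wild type libraries and replicate 9 just below them. It stood at a log2 fold change of 0.21 (SE 0.24, limma adjusted p = 0.931), and the 95% interval of the fold ran between 0.818 and 1.64. Hbegf was also the steadiest member, with a highest library 1.37-fold above the lowest.

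Epgn, the gene of epigen, was at 76.26, 53.32 and 61.72 CPM in p63 alphaKO and at 68.18, 116.26 and 93.71 CPM in wild type. Replicates 10 and 11 of p63 alphaKO lay below all wild type libraries, and replicate 9 lay above wild type replicate 13. Epgn had the smallest p of the family and did not pass (log2 fold change -0.52, SE 0.26, limma adjusted p = 0.794), and its 95% interval reached just past 0. Its adjusted p was 0.803 by edgeR and 0.903 by DESeq2. The 95% interval of the fold ran between 0.477 and 1.03. The estimate stood at -0.34 without wild type replicate 14 and at -0.72 without wild type replicate 13.

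Together Hbegf and Epgn gave 71.8% ± 5.67 of the reads of the 7 ligands in p63 alphaKO and 71.9% ± 3.18 in wild type (SD, n = 3 each). Within that total, Hbegf took 37.8%, 45.5% and 41.1% of ligand reads in p63 alphaKO replicates 9, 10 and 11 and 36.2%, 29.4% and 32.5% in wild type replicates 13, 14 and 15. These shares did not overlap between the groups, although the CPM values of Hbegf did. In CPM, 11.5% of all genes tested did not overlap, and no such rate was taken for shares. Epgn took 40.2%, 25% and 25.9% in p63 alphaKO and 32.4%, 42.6% and 42.4% in wild type, with overlap. The shares were noticed in the values, rest on the choice of ligands and were not tested. Summed over the 7 ligands, the level was 213.8 ± 24.6 CPM in p63 alphaKO and 234.6 ± 33.6 CPM in wild type.

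Nrg1, the neuregulin that binds Erbb3, was at 18.27, 39.32 and 36.44 CPM in p63 alphaKO and at 38.02, 42.90 and 14.61 CPM in wild type. Each group held 1 library well below its other 2, p63 alphaKO replicate 9 and wild type replicate 15. Nrg1 stood at a log2 fold change of 0.04 (SE 0.39, limma adjusted p = 0.997), with a fold between 0.582 and 1.82. In the GENCODE annotation, the ends of the 12 protein-coding Nrg1 transcripts fall into 8 groups more than 200 bases apart, so the value per gene does not tell which form was read. For Egfr, 3 protein-coding transcripts give 3 such groups of ends, while Erbb2, Erbb3, Areg, Ereg, Hbegf and Btc have 1 each.

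Tgfa, the gene of TGF-alpha, a growth factor that keratinocytes make for themselves, was at 13.70, 11.33 and 22.92 CPM in p63 alphaKO and at 13.51, 11.81 and 22.55 CPM in wild type. The 2 groups gave nearly the same 3 values, each with 1 library well above the other 2 (p63 alphaKO replicate 11 and wild type replicate 15). For Tgfa the log2 fold change was -0.005 (SE 0.37), and the fold interval ran between 0.583 and 1.71.

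Ereg, Btc and Areg were read at low levels and with wide intervals. Ereg, the gene of epiregulin, was at 4.57, 6.66 and 11.76 CPM in p63 alphaKO (50 reads in all) and at 8.48, 5.60 and 7.62 CPM in wild type (69 reads). The p63 alphaKO libraries spanned the wild type range on both sides, at a log2 fold change of 0.005 (SE 0.42). Btc, the gene of betacellulin, was at 4.11, 5.67 and 2.35 CPM in p63 alphaKO (30 reads) and at 5.66, 10.26 and 6.67 CPM in wild type (72 reads). The groups of Btc touched, with p63 alphaKO replicate 10 level with wild type replicate 13. Its log2 fold change of -0.78 (SE 0.45) had the largest size in the family and did not pass (limma adjusted p = 0.832; fold between 0.303 and 1.12). Areg, the gene of amphiregulin, was at 0.91, 0 and 5.29 CPM in p63 alphaKO (2, 0 and 9 reads) and at 0.31, 5.91 and 3.81 CPM in wild type (1, 19 and 12 reads). Each group held both a library with at least 9 reads and one with at most 2. The log2 fold change of Areg, -0.62 (SE 0.74), stood at -0.02 without p63 alphaKO replicate 10 and at -1.35 without replicate 11, and at -0.13 without wild type replicate 14 and -1.33 without replicate 13.

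Other ligands of the family were hardly read. Egf itself was read 3 times in p63 alphaKO, always in replicate 11, and 2 times in wild type, always in replicate 15. For Nrg2 there were 0 reads in the p63 alphaKO libraries against 2 in the wild type libraries, and Nrg3 and Nrg4 had 0 in all libraries. At this depth 0 reads allow up to 0.436 CPM over the p63 alphaKO group and 0.314 CPM over the wild type group.

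In the order of mean level over the 6 libraries, Hbegf (82.5 CPM), Epgn (78.2 CPM) and Egfr (69.6 CPM) came first. Hbegf exceeded Epgn in 3 of 6 libraries and Epgn exceeded Egfr in 4, so these 3 were not separated. Erbb3 (36.4 CPM), Erbb2 (33.7 CPM) and Nrg1 (31.6 CPM) formed the middle, with Erbb2 above Nrg1 in 2 of 6 libraries. Tgfa (15.97 CPM) lay above Ereg (7.45 CPM) in all 6, Ereg above Btc (5.79 CPM) in 5 and Btc above Areg (2.71 CPM) in 5.

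None of the 10 members passed the threshold by limma, edgeR or DESeq2, where limma called 0.0427% of the genes tested, edgeR 0.0171% and DESeq2 0.154%. At an unadjusted p under 0.05 there were 0 members by limma (6.36% of all genes tested), 1 by edgeR (6.15%), Epgn, and 0 by DESeq2 (5.54%). The groups did not overlap for 0 of the 10, against 11.5% of all genes tested. The estimate was below 0 for 6 of 10 members, against 49.3% of all genes, and the median log2 fold change was -0.01, against 0.006. Leaving out wild type replicate 15 set the median at -0.36, and leaving out wild type replicate 13 set it at 0.11. Without both wild type replicate 15 and p63 alphaKO replicate 11, 0 members were called, and 9 of 10 lay below 0 (median -0.29). Over all genes that fit called 7 higher and 41 lower. The 49.3% and 0.006 belong to the fit on all 6 libraries. Shares and medians over all genes were not taken for the fits that left libraries out. In simulated data of this comparison with 11716 genes, changes were set in genes of at least 5 CPM. The fit recovered 4.8% of genes changed 1.5-fold, 26.8% of genes changed 2-fold and 89.6% of genes changed 4-fold. In these simulated sets, changes of 2-fold or less were therefore mostly not detected. The 5 sets gave 595 calls between them, against 5 calls in the data, so the adjusted threshold was easier to pass there. Shifts shared by many genes of a library, as along the first principal component, were not simulated. The shares recovered may therefore be too high for these data. Areg, at 2.71 CPM, lay below the level simulated.

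**Figure D3:**
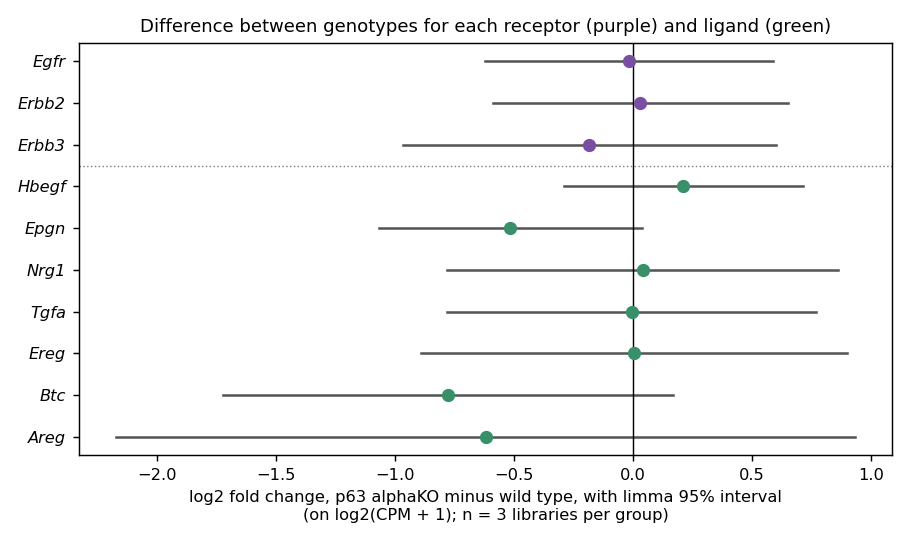
Log2 fold change of each receptor (purple) and ligand (green), p63 alphaKO minus wild type, with limma's 95% interval (n = 3 libraries per group). All 10 intervals include 0; that of Epgn runs between -1.07 and 0.04 and that of Btc between -1.72 and 0.17.

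For the receptors, Nrg1 and Tgfa, libraries of a genotype lay further apart than the means of the genotypes. Egfr, Erbb2 and Erbb3 were each lowest in p63 alphaKO replicate 11 among p63 alphaKO libraries, and each lowest in wild type replicate 15 among wild type libraries. Summed, the receptors reached 149.3, 151.6 and 105.2 CPM in p63 alphaKO replicates 9, 10 and 11 and 176.0, 169.4 and 87.0 CPM in wild type replicates 13, 14 and 15. Tgfa ran the other way, highest in those same libraries. They are the libraries that stood apart on the first principal component, and the part played in these levels by whatever set them apart was not tested. Without wild type replicate 15 the log2 fold changes were -0.33 for Egfr, -0.21 for Erbb2, -0.61 for Erbb3 and -0.43 for Nrg1. Without p63 alphaKO replicate 11 they were 0.11 for Egfr, 0.14 for Erbb2, 0.12 for Erbb3 and -0.10 for Nrg1. With both left out they were -0.19, -0.11, -0.31 and -0.57 in the same order of genes, and none passed (limma adjusted p of at least 0.608).

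Melanocytes are known to carry Erbb3, and their markers varied along with the libraries. All 12 melanocyte markers were read in both groups, and their sum was 627.9, 1151 and 259.2 CPM in p63 alphaKO (replicates 9, 10 and 11), against 912.1, 834.6 and 349.7 CPM in wild type (replicates 13, 14 and 15). Erbb3 and the melanocyte sum were both lowest in p63 alphaKO replicate 11 and wild type replicate 15, but p63 alphaKO replicate 10, with the highest melanocyte sum, had less Erbb3 than replicate 9. The part of melanocytes in the Erbb3 level was not tested, and in such bulk cultures fewer cells of a type and less RNA per cell cannot be told apart. Schwann cell markers, another lineage that relies on Erbb3, were read for 7 of 8 genes in each group and summed to between 60.0 and 125.6 CPM in p63 alphaKO and between 55.0 and 89.5 CPM in wild type. The share of each gene in that sum is not given here, so the sum does not measure Schwann cells.

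Markers of other cell types were read as well. Fibroblast markers were read for 9 of 10 genes in each group, with Lum at 0 throughout, and summed to between 7.06 and 43.7 CPM in p63 alphaKO and between 17.2 and 46.8 CPM in wild type. Muscle markers were read for 7 of 10, with Myh3 and Myh8 at 0 throughout, and summed to between 21.0 and 85.8 CPM in p63 alphaKO and between 74.5 and 739.8 CPM in wild type, the highest in replicate 15. Endothelial markers (3 of 6 read in p63 alphaKO and 4 of 6 in wild type; Kdr and Cldn5 at 0) summed to at most 5.29 CPM and 4.13 CPM. Immune and Langerhans markers (3 of 7 in each group; Cd207, Tyrobp and Cd3e at 0) summed to at most 8.22 CPM in p63 alphaKO and 6.35 CPM in wild type. The part of these cells in the levels of the ligands and receptors was not tested.

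Erbb2 ends against the gene Mien1, which runs towards it on the other strand, and their annotated exons share 9 bases at the very 3' end of Erbb2. Because a 3' assay reads that end and the use of strand in counting is not given in the sources used here, reads near it could be credited to either gene. Mien1 was at 122.84, 110.64 and 205.13 CPM in p63 alphaKO and at 79.81, 91.39 and 190.59 CPM in wild type. It was highest in p63 alphaKO replicate 11 and wild type replicate 15, where Egfr and Erbb3 were lowest in their group as well as Erbb2. Whether reads passed between Mien1 and Erbb2 was not tested. For Ereg, Tgfa and Nrg1, the exons shared with a gene on the other strand lie at least 12443 bases from the 3' end, and the partners of Ereg and Nrg1 had 10 reads and 1 read over all 6 libraries.

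**Figure D4:**
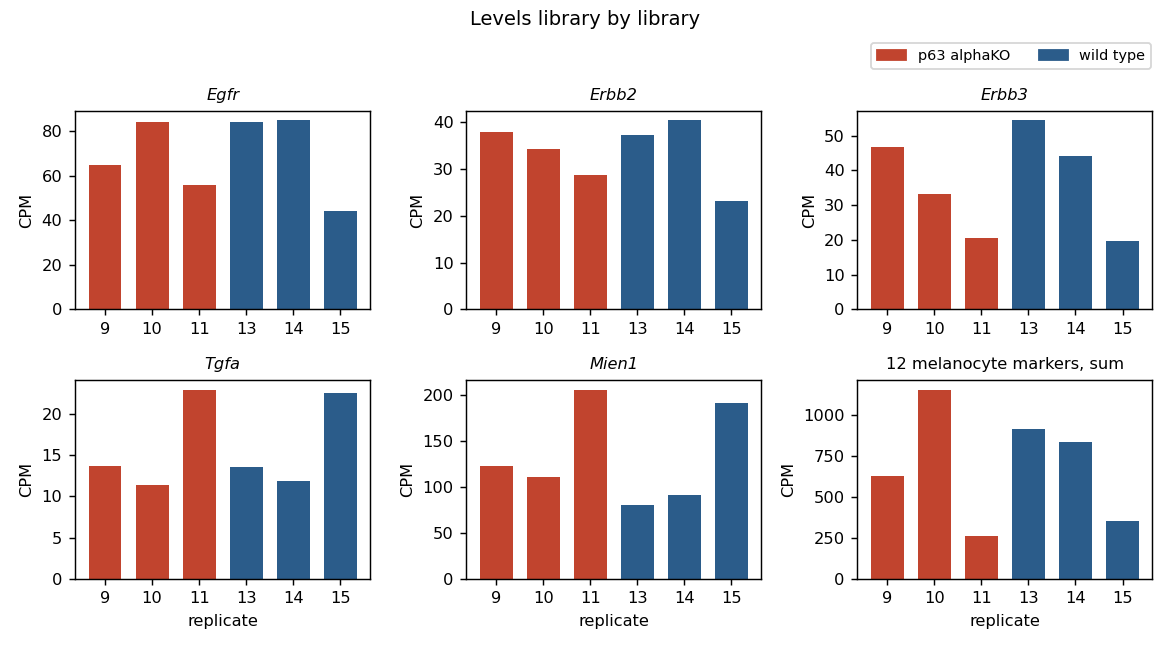
CPM in each library (p63 alphaKO replicates 9 to 11 in red, wild type replicates 13 to 15 in blue) for Egfr, Erbb2, Erbb3, Tgfa, the neighbouring gene Mien1 and the sum of 12 melanocyte markers. Replicate 11 of p63 alphaKO and replicate 15 of wild type have the lowest receptor levels of their group and the highest Tgfa, at 22.92 and 22.55 CPM.

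The genes whose log2(CPM + 1) followed the leading members most closely over the 6 libraries, among 6167 genes averaging 20 CPM or more, are given as a description. For Egfr they were L1cam, Gtf3c4 and Limd1, each with a Pearson correlation of 0.99, and all were lowest in wild type replicate 15. For Hbegf they were Ivns1abp (0.98), N6amt1 (0.97) and Rnf185 (0.97), and for Epgn Tle4 (0.98), Cyld (0.97) and Hspb8 (0.96). Ivns1abp was at 203.67, 462.21 and 443.18 CPM in p63 alphaKO and at 224.65, 234.70 and 168.99 CPM in wild type, so it, like Hbegf, was high in p63 alphaKO replicates 10 and 11. These genes were picked for following the members in these same libraries, so the shared highs and lows come with the choice. Each value rests on 6 libraries that share their depth and makeup across genes.

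The rest of the pathway was read from lists of 76 genes, of which 69 were tested and 0 were called by limma, edgeR or DESeq2. At an unadjusted p under 0.05 there were 6 by limma (4 lower, where 3.35% of all genes tested were, and 2 higher, where 3.01% were), 5 by edgeR and 5 by DESeq2. The groups did not overlap for 6 of the 69, against 11.5% of all genes. The estimate was below 0 for 44 of 69 (63.8%), against 49.3% of all genes tested, and the median log2 fold change was -0.09, against 0.006. The counts and medians of the single lists that follow stand against the same 49.3% and 0.006.

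Genes that release the ligands gave no call. Of 7 tested, 6 lay below 0 (median -0.33). Timp3, an inhibitor of ADAM17 and of matrix proteases, was at 332.90, 169.62 and 105.80 CPM in p63 alphaKO and at 473.50, 436.44 and 459.96 CPM in wild type. Every p63 alphaKO library lay below every wild type library, with the 3 wild type values close together and those of p63 alphaKO spread out. The log2 fold change was -1.32 (SE 0.31, limma adjusted p = 0.299), and it passed only without p63 alphaKO replicate 9 (-1.76, adjusted p = 0.0267) among the fits that left out 1 library. Adam17, the main protease for TGF-alpha, amphiregulin and HB-EGF, averaged 59.2 ± 5.33 CPM in p63 alphaKO and 58.3 ± 3.16 CPM in wild type (SD, n = 3 each). Rhbdf2, which encodes the ADAM17 partner iRhom2, averaged 7.497 ± 2.43 CPM in p63 alphaKO and 11.9 ± 3.86 CPM in wild type (log2 fold change -0.60).

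Downstream of the receptor, the adapters had 5 of 10 members below 0 (median 0.009). Plcg1, a phospholipase that docks on active receptors, averaged 141.5 ± 16.6 CPM in p63 alphaKO and 90.9 ± 34.9 CPM in wild type (log2 fold change 0.70, SE 0.27, limma adjusted p = 0.729), and Ptpn11, the phosphatase SHP2, stood at -0.34. Genes of receptor inhibition and turnover had 7 of 11 tested members below 0 (median -0.09), with Sh3kbp1, an endocytic adapter, at -0.50 and Lrig3 at -0.49. Leaving out 1 library set Sh3kbp1 as low as -0.96 when p63 alphaKO replicate 9 was dropped, and as high as -0.24 when replicate 10 was. For Lrig3 it was -0.0081 without p63 alphaKO replicate 11, -0.21 without wild type replicate 13, and as low as -0.77 without p63 alphaKO replicate 10. Of this list Hgs is listed at 0 in every library and was not tested.

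RAS to ERK genes had 6 of 13 below 0 (median 0.02). Nf1, the gene of neurofibromin, which switches RAS off, was at 19.64, 17.66 and 17.63 CPM in p63 alphaKO and at 11.63, 13.37 and 7.31 CPM in wild type, without overlap, and did not pass the threshold (log2 fold change 0.75, SE 0.34, limma adjusted p = 0.775). PI3K and AKT genes had 5 of 8 below 0 (median -0.05), with the catalytic subunits Pik3ca at -0.35 and Pik3cb at -0.22. Of Stat3, Jak1 and Src, Src, a kinase that works with Egfr, averaged 20.2 ± 5.08 CPM in p63 alphaKO and 32.9 ± 6.17 CPM in wild type (-0.69, SE 0.31, adjusted p = 0.767), and Stat3 stood at -0.16.

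Genes induced by ERK had 12 of 17 tested members below 0 (median -0.23). Myc, a growth-promoting transcription factor, was at 12.79, 6.66 and 12.93 CPM in p63 alphaKO and at 31.42, 40.72 and 14.61 CPM in wild type. The groups did not overlap, though wild type replicate 15 lay only just above the p63 alphaKO libraries. The log2 fold change of Myc was -1.28 (SE 0.40, limma adjusted p = 0.646), and it passed when wild type replicate 15 and p63 alphaKO replicate 11 were both left out (-1.84, adjusted p = 0.0298). Its adjusted p over all other fits lay between 0.236 and 0.999. Ccnd1, encoding cyclin D1, averaged 376.1 ± 115.8 CPM in p63 alphaKO and 524.6 ± 115.7 CPM in wild type (-0.50, adjusted p = 0.794).

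**Figure D5:**
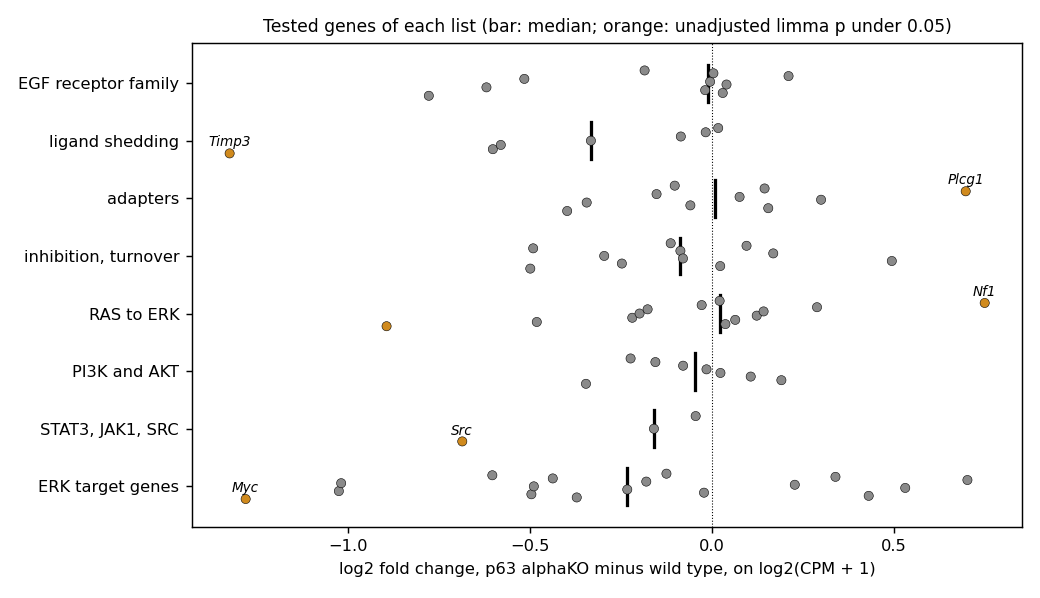
Log2 fold change, p63 alphaKO minus wild type, of each tested gene of the EGF receptor family and of the pathway lists (bar, median of the list; orange, unadjusted limma p under 0.05; names mark genes described in the text). No point passes the adjusted threshold, and the list medians lie between -0.33 for ligand shedding and 0.02 for RAS to ERK.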

How the data were processed

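The deposited table holds CPM (counts per 1000000 reads), as read from the values: its 6 columns sum to between 999047 and 999508. Per the submitters' processing notes STAR, HTSeq and mm10 were used; their roles and versions, the annotation, filters, strand and any molecular identifiers were not stated there. Per the labels, RNA was column-purified and sequenced as 3' digital gene expression. All values above 0 (100%) lay within 0.1 read of whole reads.

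The 11716 genes averaging 1 CPM or more were tested with limma 3.58.1 (R 4.3.3, mean-variance trend) on log2(CPM + 1), two-sided, with Benjamini-Hochberg adjustment over all of them. Differences are p63 alphaKO minus wild type on that scale, which understates changes of low genes. edgeR 4.0.16 and DESeq2 1.42.0 on recovered reads were alternatives, beside other pseudocounts, filters, scalings and left-out libraries. Members are all named; from each list the 4 past the threshold, or the 2 of smallest p, are named, except a gene not reported here, and other genes (Adam17, Hgs, Mien1, Ivns1abp and the markers) by their level. Members and lists were chosen with earlier results of these data known. Separate cultures or animals are not stated, so p-values measure the spread between these libraries, which may be technical; read-based limits cover counting error only. The fit was tested on 5 simulated data sets, each with 200 changed genes, and 44 of 595 calls were false. Coordinates are from GENCODE vM21 on GRCm38, and promoter windows from RefSeq (GRCm38.p6).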

Additional observations from a re-analysis of the deposited data

How the results depend on the processing

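No paired analysis was possible because the groups share no replicate numbers. The family had 0 members called in every fit run. The number of genes called, 5 of 11716, was 2 with a pseudocount of 0.5, 3 with 5, 1 with no filter, 2 at a minimum of 5 CPM, 0 with no trend, 2 by edgeR, 18 by DESeq2, and 2 to 13 leaving out 1 library. With sex as a covariate (Xist marks p63 alphaKO replicate 11 and wild type replicate 13) it was 2, and without p63 alphaKO replicate 11 and wild type replicate 15 it was 48; both fits were chosen after seeing the data. Of the pathway genes, 1 was called (Myc) without those 2 libraries, and 0 to 1 (Timp3) leaving out 1 library.

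Some estimates changed sign between fits, and the cause was not tested. Erbb2 was at -0.014 by edgeR, -0.0067 by DESeq2 and -0.11 without both libraries. Ereg was at -0.014 with TMM scaling and -0.28 without both. Nrg1 was at -0.033 by edgeR, -0.025 by DESeq2 and -0.57 without both. Leaving out 1 library gave -0.33 to 0.14 for Egfr, -0.21 to 0.18 for Erbb2, -0.61 to 0.12 for Erbb3, -0.32 to 0.28 for Ereg, -0.28 to 0.26 for Tgfa, -0.43 to 0.38 for Nrg1, -0.59 to 0.034 for Ptpn11, -0.45 to 0.011 for Pik3cb and -0.50 to 0.14 for Stat3. Hbegf, Epgn, Btc and Areg kept their sign in every fit that tested them. Areg was not tested at the minimum of 5 CPM. Members below 0 numbered 7 of 10 with TMM scaling and 8 of 10 by edgeR or DESeq2. The share of all genes below 0 was not taken for these fits. TMM scaling also moved the median log2 fold change of all genes tested, from 0.006 to -0.014. Areg rested on 11 p63 alphaKO and 32 wild type reads, and its reads also differed between libraries of 1 group, with 1 in wild type replicate 13 and 19 in wild type replicate 14.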
